A study of Drosophila melanogaster with 3 samples.

Results

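The mod(mdg4) locus of Drosophila melanogaster encodes a family of BTB-domain proteins that share an amino-terminal part made from common 5′ exons and differ in their carboxy-terminal part, which is encoded by alternative 3′ exons and in most isoforms carries a FLYWCH zinc finger. Many of these 3′ exons are transcribed as separate precursor RNAs, some from the opposite DNA strand, and are joined to the common exons by trans-splicing, the ligation of exons from separate transcripts. Mod(mdg4) proteins act at chromatin insulators; isoform T is the partner of Su(Hw) and CP190 at the gypsy insulator, and other isoforms act in meiotic chromosome pairing and in cell death.

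The regions described here come from ChIP-seq of CG3281, a zinc finger protein, in whole embryos. The samples are 3 biological replicates of 1 group, of mixed sex and 0 to 24 h old. The line is transgenic and stably expresses CG3281 fused at its C-terminus to GFP (eGFP in other labels), and sonicated chromatin was immunoprecipitated with an antibody to GFP. All embryos carried the transgene, cells of every embryonic tissue were pooled, and no second condition was sampled. The authors deposited 30000 regions for each replicate and 30000 for the pooled replicates, weak regions included, and 6565 regions that passed an irreproducible discovery rate (IDR) criterion, which compares the ranking of regions between replicates. Read depth is unknown.

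The locus was taken as mod(mdg4) (FBgn0002781, on the minus strand at chr3R:21350846-21377401 of dm6), every gene whose symbol starts with pre-mod(mdg4), and 2000 bp on each side, which gave 30556 bp and 24 of 13945 protein-coding genes. The annotation lists 22 mod(mdg4) transcripts with 1 shared start, 4 common exons at chr3R:21375060-21377401, and 23 precursor genes, 14 on the mod(mdg4) strand and 9 on the opposite strand. Exons past the common ones were merged with the precursor genes they overlap into 12 units that serve 31 isoforms; 5 of the units contain precursor genes and 7 do not. The locus holds 5 of the 6488 distinct IDR intervals, 9 of the 30000 pooled regions, and 10, 10 and 9 regions of replicates 1, 2 and 3. It was selected on these lists, so the counts and signals below are descriptions and carry no test.

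The strongest region of the locus, R1, and the third in order of pooled signal, R3, lay at starts of precursor genes, and both hold the same string of letters. The second, R2, lay outside the genes of the locus and holds no copy of it. CAGCCCTGG occurred 3 times in the locus. Each copy lay inside an IDR region and within 50 bp of a precursor start, on the strand that this start transcribes. The 3 copies are printed 5′ to 3′ on the strand that carries them, in 30-base stretches of dm6 from RefSeq, with the string in capitals. They are shown because R1 and R3 both hold the string. These regions were not searched for other strings that they share.
Copy at the start of precursors AB, C and E, chr3R:21365269-21365298, minus strand: gcatcgagtgCAGCCCTGGcattgttgctg
Copy at the start of precursors AD, AE, U, V, W, X and Y, chr3R:21365563-21365592, plus strand: ccgaacattgCAGCCCTGGgtgcaagcgct
Copy at the start of precursors AA, N and O, chr3R:21373579-21373608, minus strand: attgaatgtgCAGCCCTGGtgcttcggctg
All 3 copies follow the letters TG, and the stretches share no base directly after the string. The first copy spans positions 2 to 10 downstream of its start, the second positions −36 to −28 and the third positions −23 to −15, so a single copy lies inside the transcript and the others lie upstream of it.

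The string was assembled from CAGCCCTG and AGCCCTGG, the first and second of the 20 words of 8 letters most enriched at summits of the 6483 IDR regions outside the locus, counted on both strands within 50 bp of the summit and in windows centred 500 bp to either side. Outside the locus CAGCCCTG occurred in 1.13% of summit windows and 0.116% of flank windows, and AGCCCTGG in 0.864% and 0.0925%. The words were thus picked on other loci, whereas joining them into 9 letters was done after the locus had been read. Of the same 20 words, TAACCTGA, CACTAGTC and CAACACTG also occurred once each in the locus. They lay 6665, 7364 and 7575 bp from the nearest IDR summit, outside every IDR and pooled region. The 9-letter string was at 0.982 copies per 10 kb in the locus, against 0.0431 per 10 kb in the rest of the 6 chromosome arms. All 3 copies of the locus lay in IDR regions, and all 3 lay in a region of each replicate. They lay in R1 and R3 only, so they are not 3 separate observations. The locus was selected on these lists, so the shares elsewhere are given for description and not as a test. Of the 577 copies elsewhere 88 lay in an IDR region (15.3%) and 158 in a pooled region (27.4%). Most copies of the string in the genome thus had no region, and the string was found in the whole interval of only 1.33% of other IDR regions.

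The strongest region of the locus, R1, lay at chr3R:21365230-21365641, and it was the meeting point of 2 divergently transcribed groups of precursors. Its 412 bp contain 3 of the 8 start sites of the locus: 21365290 on the minus strand, used by precursors AB, C and E, 21365488 on the minus strand, used by a further transcript of E, and 21365609 on the plus strand, used by the 7 precursors AD, AE, U, V, W, X and Y. Of the IDR intervals elsewhere, 28.9% held any protein-coding start site, 5.82% held start sites of both strands and 1.88% held 3 or more. The last 2 shares are over all intervals, most of which hold no start. The 120 bases between the inner minus-strand start and the plus-strand start are shown on the plus strand, since they separate the nearest divergent starts; they lie in an intron of mod(mdg4) and outside the precursor genes.
R1 between divergent starts, chr3R:21365489-21365608: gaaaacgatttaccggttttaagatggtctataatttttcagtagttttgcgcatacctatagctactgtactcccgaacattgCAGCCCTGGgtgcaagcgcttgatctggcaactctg
R1 carries a copy of the string near each end, in opposite orientation and 293 bp apart from centre to centre. The pooled summit, in the 5′ untranslated exon of precursor E at 21365430, lay 0.5 bp from the midpoint of the copies, 146 bp and 147 bp from their centres. The summits of replicates 1, 2 and 3 lay 21.5, 17.5 and 7.5 bp from that midpoint, all on the side of the plus-strand start. No replicate placed its summit on either copy.

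**Figure D1:**
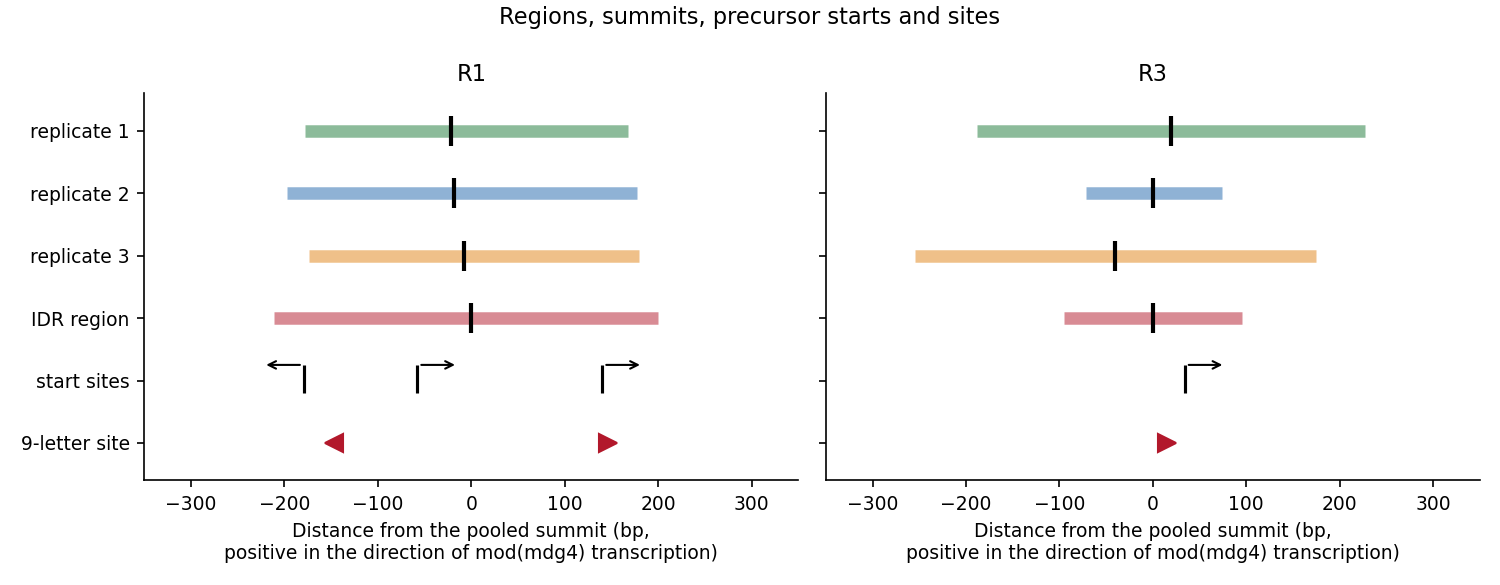
Replicate regions (bars) with their summits (black ticks), the IDR region, precursor start sites (arrows show the direction of transcription) and copies of the 9-letter string (triangles point along its strand) around R1 and R3, plotted against distance in bp from the pooled summit. In R1 the summits sit between 2 copies that point outward. In R3 they sit within 55 bp of the centre of 1 copy just upstream of the start.

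The pooled signal of R1 was 1621 in the authors' units, rank 260 of 6565, and 8.18 times the lowest signal in the IDR set. Its signal was 506, 656 and 473 in replicates 1, 2 and 3. Because the scale differs between lists, these were divided by the median region of each list, which gave 14.9, 16.9 and 10.8, a mean of 14.2 ± 3.12 (SD, n = 3). R1 was the strongest region of the locus in every replicate, and its lowest multiple lay above the highest of any other region there. Among the 88 IDR regions of the genome that hold the 9-letter string, R1 ranked 6 by pooled signal.

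R3, at chr3R:21373513-21373704, lay at the single start (21373575, minus strand) of precursors AA, N and O, within an intron of mod(mdg4) on the same strand. The part of its summit window upstream of that start is shown on the plus strand, where the string reads as its reverse complement CCAGGGCTG, with that match in capitals.
R3 upstream of the precursor start, chr3R:21373576-21373659: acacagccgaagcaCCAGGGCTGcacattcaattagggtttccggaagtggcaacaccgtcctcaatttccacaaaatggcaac
The pooled summit of R3 lay 15 bp from the centre of the string and at position −34 from the start. Replicates 1, 2 and 3 placed their summits at −15, −34 and −74 from the start. Measured along the plus strand, these summits lay at −4, 15 and 55 bp from the centre of the string. In replicate 3 the string was thus outside the 50 bp around the summit. The summit thus fell upstream of the start in every replicate. The pooled signal was 517 (rank 1814), and the multiples of the list median were 4.22, 5.37 and 3.45 in replicates 1, 2 and 3 (4.35 ± 0.967, SD, n = 3). Among the regions that hold the string, R3 ranked 40 of 88.

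The start of the full mod(mdg4) transcripts, from which the common exons with the BTB domain are transcribed, had a weak region only. That region, R7 (chr3R:21377138-21377573, summit at position 45 from the start at 21377401), was in the pooled list with a signal of 148 and rank 9340, outside the IDR set. Its multiples were 1.95, 1.31 and 1.02 in replicates 1, 2 and 3, close to the median region of a list that includes background. Every replicate had a region there, at signals of 66.2, 50.8 and 44.6. R1 was 7.63, 12.9 and 10.6 times as strong as R7 in the same replicates (10.4 ± 2.65, SD, n = 3). The difference between R1 and R7 had the same direction in all 3 replicates. R1 was named as the strongest region of the locus in the same data, so this direction follows from the choice and is no test. It does not extend to every precursor start. Those at 21359768, 21360176 and 21368129 had no pooled summit within 500 bp, whereas the common start had R7. No copy of the string lay within R7.

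The IDR region nearest the common start was R5, at chr3R:21376188-21376623, in an intron between common exons with its summit 995 bp downstream of the start. Its summit lay 979, 980 and 993 bp downstream in replicates 1, 2 and 3. The multiples were 2.41, 3.28 and 2.73 (2.81 ± 0.438, SD, n = 3), with a pooled signal of 334 and rank 3360. R5 held none of the 20 words, and its summit window had a GC content of 57.4%, higher than in 98.6% of other IDR regions. It was the single IDR region of the locus with GAGAG in its summit window, the string bound by GAGA factor, printed in capitals in overlapping copies as its reverse complement.
R5 summit window, chr3R:21376356-21376456, plus strand: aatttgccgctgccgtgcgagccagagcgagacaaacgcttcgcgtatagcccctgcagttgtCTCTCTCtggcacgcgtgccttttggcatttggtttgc
GAGAG occurred in 9.52% of summit windows and 13.9% of flank windows of the other IDR regions, so it was not more frequent at summits.

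The remaining IDR regions lay in the flanks, next to the neighbouring genes. R2 (chr3R:21378612-21378887) was intergenic, at position −226 from the start of tin, the homeobox gene tinman, which is required for formation of the heart and visceral muscle. Its multiples were 6.32, 5.93 and 7.71 in replicates 1, 2 and 3 (6.65 ± 0.935, SD, n = 3), with a pooled signal of 778 and rank 949. The GC content of its summit window was 17.8%, lower than that of all but 1.97% of other IDR regions. It held TATAAA, the letters of the TATA box, in capitals with their reverse complement. The window ends at 21378801, short of the tin start at 21378977, and use of the string as a TATA box was not tested.
R2 summit window, chr3R:21378701-21378801, plus strand: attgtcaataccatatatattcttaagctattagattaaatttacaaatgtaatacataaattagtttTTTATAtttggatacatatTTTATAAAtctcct
R4 (chr3R:21350099-21350299) lay beyond the last exon of mod(mdg4), at position −575 from the start of aus, and its multiples were 3.24, 3.78 and 2.32 (3.11 ± 0.736, SD, n = 3). R6, a weaker region outside the IDR set with a pooled signal of 158, lay over the aus start itself, at position 62. The next gene beyond tin, the homeobox gene bap (bagpipe), had no IDR summit within 500 bp of its start: the nearest was R2, at position −10129.

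**Figure D2:**
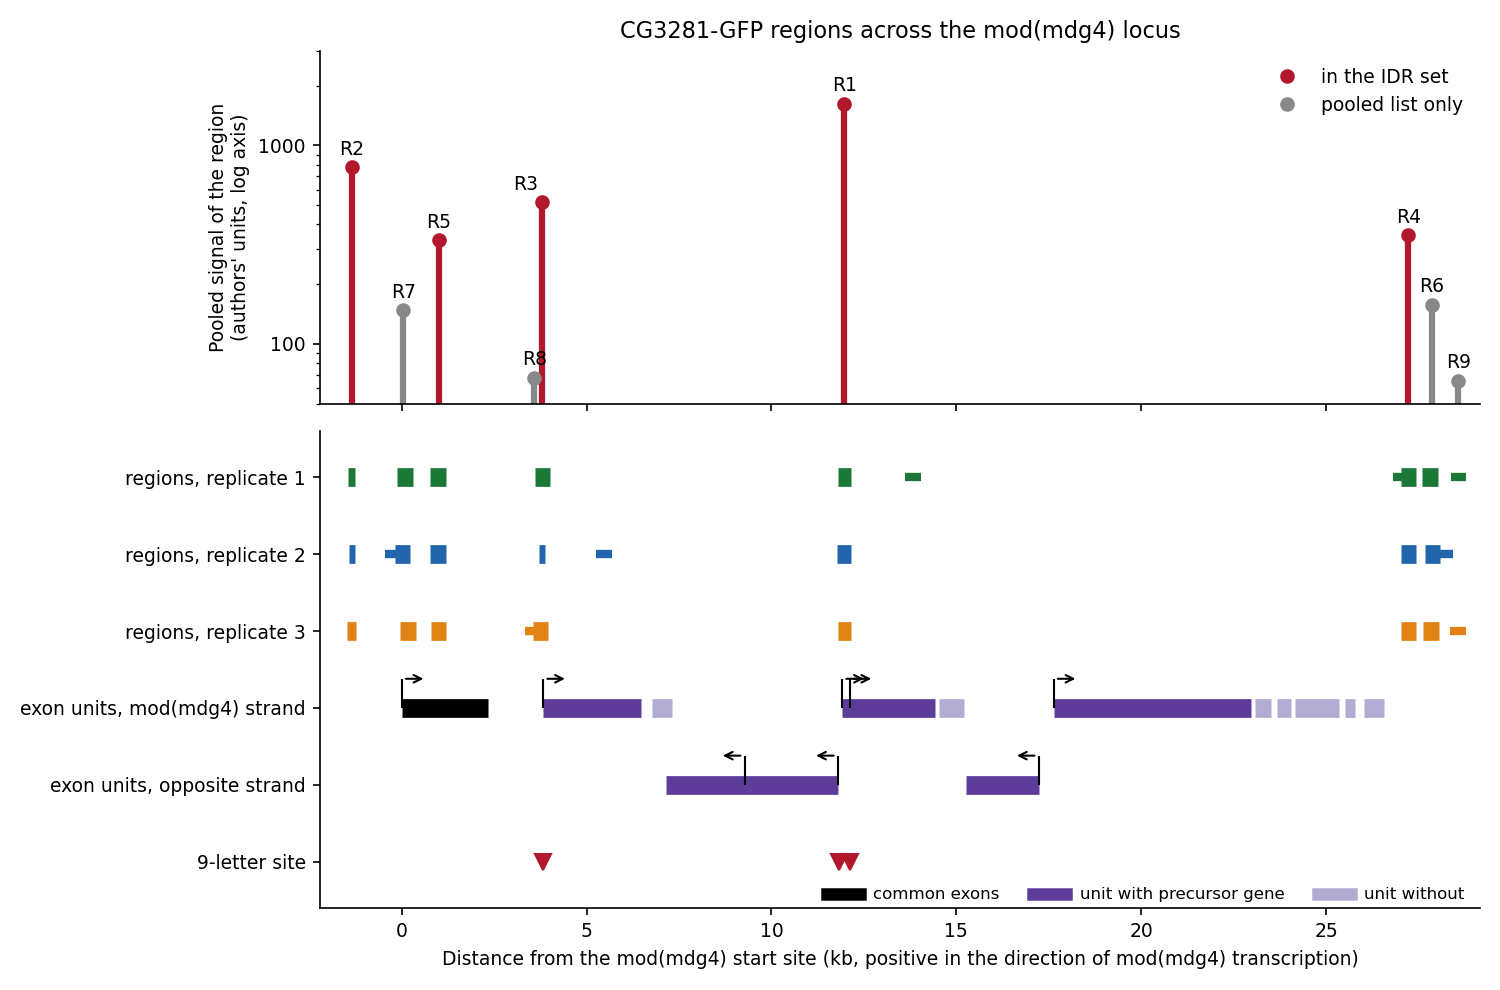
Upper panel: pooled signal of each of the 9 pooled regions (authors' units, log axis) against distance in kb from the mod(mdg4) start. Lower panel: regions of each replicate (thin bars are weaker than the median of their list), common exons, exon units on each strand with start sites as arrows, and copies of the 9-letter string. R1 and R3 sit at precursor starts with copies of the string, and the stretch from about R1 to R4, which holds most exon units, has no pooled region.

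Of the 8 distinct start sites of the locus, 4 had an IDR summit within 500 bp, beside 23.2% of the 19253 distinct start sites of all protein-coding genes. The 4 were the 3 starts inside R1 and the start at R3. The starts without an IDR summit were those of the 8 precursors B, G, H, I, J, K, L and P (21359768, minus strand), of T and Z (21360176, plus strand), of a shorter transcript of U and V (21368129, plus strand) and of mod(mdg4). By gene, 13 of the 23 precursors had a start with an IDR summit and 10 had none, beside 24.8% of all protein-coding genes. The precursors with a summit share 4 starts in 2 regions, so they are not separate observations. The precursor of isoform T, the Su(Hw) partner, was among those without: its nearest IDR summit was 5254 bp away, in R1.

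Counted by exon unit, 3 of 12 units had an IDR summit inside or within 500 bp, and the same number had a pooled summit. All 3 were among the 5 units with precursor genes, the units of AB, C and E, of AD, AE, U, V, W, X and Y, and of AA, N and O, which serve 13 of the 31 isoforms. None of the 7 units without a precursor gene had an IDR or pooled summit. The 5 units with precursor genes span 1956 to 5329 bp, and each holds a start site. The 7 others span 273 to 1198 bp and hold none, so precursor, start site and length cannot be told apart here. No share over comparable units of other genes was computed. Replicates 2 and 3 gave the same 3 units, and replicate 1 added the unit of isoform AF through a region at 0.748 times its list median. With the summit required to be inside the unit, the count was 1. Summits of the IDR regions lay at the upstream edges of these 3 units, at 58 bp past the start of E that opens the unit of AB, C and E and upstream of the starts of the other units, and no IDR summit lay over an alternative coding exon.

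Between R4 and R1, chr3R:21350300-21365229 had no pooled region over 14930 bp. This stretch contains 8 of the 12 exon units whole, among them the unit of B, G, H, I, J, K, L and P and that of T and Z. Replicates 2 and 3 had no summit in it, and replicate 1 had 2, both weaker than the median of its list. Of the gaps between pooled regions over the genome, 6.96% were at least as long. Between R1 and R3 a further 7871 bp had no pooled region, and in that stretch replicate 2 had a single summit, at 0.603 times its list median, in a coding exon of AA, N and O.

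The order of the 5 IDR regions by signal was R1, R2, R3, R4, R5 in replicates 1 and 2, and R5 exceeded R4 in replicate 3. The replicate multiples of R1 did not overlap those of R2, and those of R2 did not overlap those of R3. The ranges of R3 and R4 overlapped (3.45 to 5.37 and 2.32 to 3.78), but within each replicate R3 was the stronger, by 1.30, 1.42 and 1.49 times in replicates 1, 2 and 3. R4 was 1.34, 1.15 and 0.850 times as strong as R5 in the same replicates, so these neighbours did not differ beyond the replicate spread. All 5 were among the strongest 6565 regions of every replicate. R7 was so in replicate 1 only, and R6 in none.

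**Figure D3:**
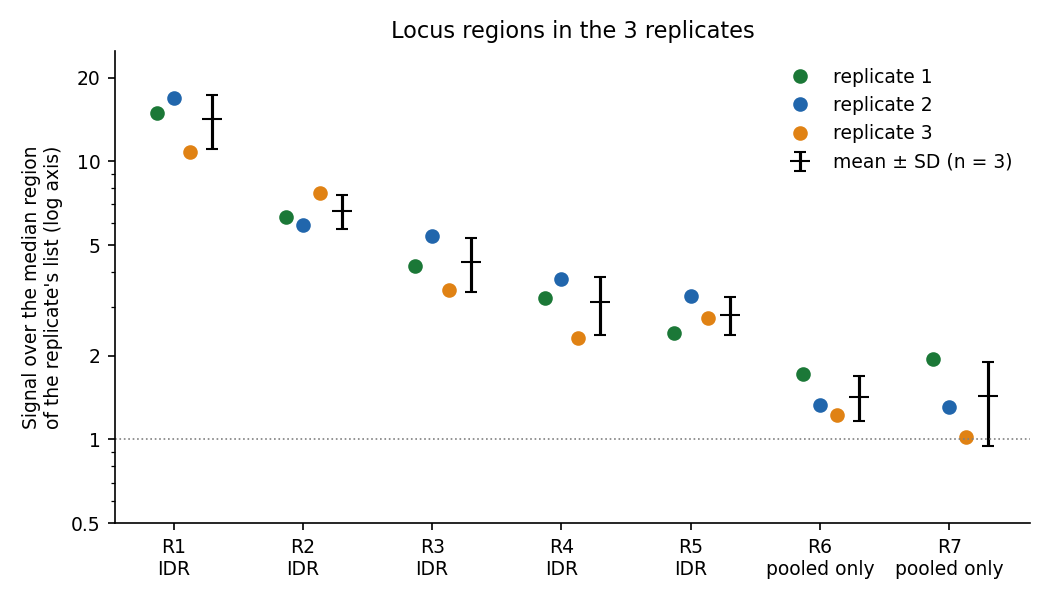
Signal of 7 locus regions in each replicate as a multiple of the median region of that replicate's list (log axis), with mean ± SD (n = 3); the dotted line is the list median. R1 stands at 10.8 to 16.9, above every other region in each replicate, and R7 at the common start stands at 1.02 to 1.95.

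Of 7 known promoter and insulator strings, 4 had a match in at least 1 of the 5 IDR summit windows. DRE (TATCGATA), the BEAF-32 string (CGATA) and Motif 1 were in none of the 5 IDR summit windows; elsewhere they were in 1.20%, 14.5% and 0.432% of summit windows and in 0.285%, 11.9% and 0.0771% of flank windows. The Su(Hw) core string TGCATA was in R1 only, and occurred in 7.93% of other summit windows and 6.06% of flank windows. TATAAA was in R2 and R4, and in 21.9% of other summit windows against 10.9% of flank windows. The E-box CANNTG was in R2 and R5, and in 36.2% of other summit windows and 40.7% of flank windows. BEAF-32 and DRE overlap in sequence, all strings were searched on both strands, and a match is a run of letters and not evidence of binding.

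By number of IDR regions per length the locus was among the denser long genes. It had 1.64 regions per 10 kb, against a median of 0.437 (quartiles 0 and 0.973) over 1761 other protein-coding genes that span at least 15.3 kb with their flanks, of which 68% had at least 1 IDR region. The locus lay above 88.2% of them. A 95% exact binomial interval, 86.6 to 89.7, served only as a tolerance for the alternative settings given below. It treats genes as independent draws, although these are all genes of that length and overlapping genes can share regions. It gives no uncertainty for the place of the locus. The 5 genes nearest to it in density over the IDR set were Sema5c, Agpat2, Pino, mam and Atf3, with 1.64 regions per 10 kb each and 3 to 12 regions. The place of the locus moved with the background chosen, to 75.7% over all protein-coding genes.

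Other BTB genes with alternative 3′ exons or zinc fingers differed in where their regions lay. The start count of mod(mdg4), 4 of 8, includes the starts of its precursor genes. Its own start had no IDR summit, so start counts are not of the same kind across loci. The lola locus, which also joins alternative zinc finger exons by trans-splicing, held 5 IDR regions (0.765 per 10 kb), and 2 of its 5 starts had a summit. Its strongest region had a pooled signal of 1203 and lay at position −312 from a lola start. The ttk locus was nearly as dense as mod(mdg4), with 4 regions and 1.57 per 10 kb, but none of its 4 starts had a summit. The fru locus held 5 regions over a longer span (0.370 per 10 kb) with 1 of 7 starts, chinmo 3 (0.522 per 10 kb), ab 1 (0.184 per 10 kb) and br 1 (0.107 per 10 kb), and no start of these last 3 had a summit. Counts among the strongest 6565 regions of single replicates averaged 5.33 ± 0.577 at mod(mdg4), 5.67 ± 0.577 at lola, 4.33 ± 1.53 at ttk and 5.67 ± 3.06 at fru (SD, n = 3). These 4 counts are not divided by length, and the loci span 30.6, 65.4, 25.5 and 135 kb in the same order. As counts they did not differ beyond replicate spread.

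**Figure D4:**
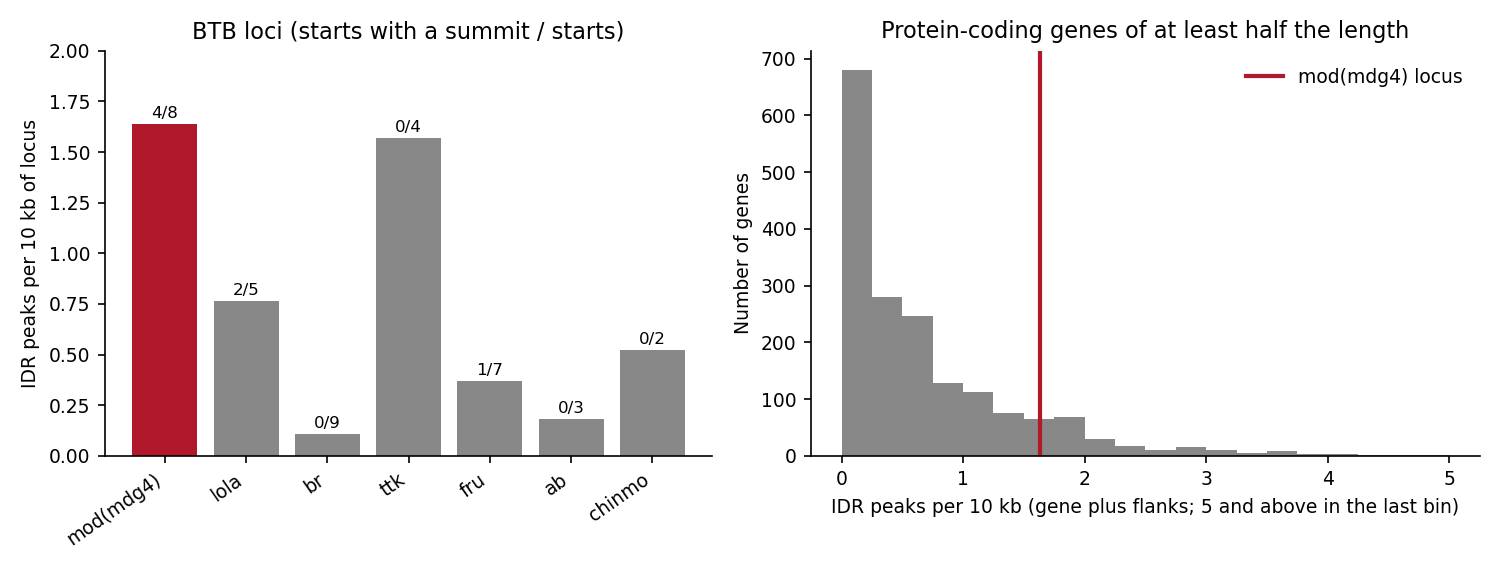
Left: IDR regions per 10 kb at mod(mdg4) and 6 other BTB loci. Above each bar is the number of start sites that had a summit over all start sites, with precursor starts included at mod(mdg4). Right: the same density over 1761 other long protein-coding genes, with the mod(mdg4) locus as a line at 1.64.

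Several genes of insulator proteins and Mod(mdg4) partners had IDR regions at their own starts. Of 25 names, 23 matched the annotation, and 12 of these (52.2%) had an IDR summit within 500 bp of a start, beside the 24.8% of all protein-coding genes given above. The strongest were Chro (chromator, an interband protein that binds insulator complexes), with a pooled signal of 3655, Cp190 (a cofactor of Mod(mdg4) at insulators), with 2158, and Dref (the factor that binds DRE), with 1461. M1BP, which binds Motif 1, had 1252, Trl, the gene of GAGA factor, 1162, and pzg 534. The region at M1BP stood at 2.96, 11.8 and 10.6 times the list median in replicates 1, 2 and 3, so replicate 1 was low there. The start of su(Hw), whose protein binds gypsy with Mod(mdg4) isoform T, had a pooled signal of 240, the lowest of the 12. Its multiples were 2.78, 2.23 and 1.54 in replicates 1, 2 and 3, and l(3)mbt was lower in replicates 1 and 2, at 2.21 and 2.08. By pooled signal R1 was stronger than the regions of all but Chro and Cp190 in this list, and stronger than the region at the start of CG3281 itself, at 636. Against Dref the order was not the same in every replicate: R1 stood at 14.9, 16.9 and 10.8 times the list median in replicates 1, 2 and 3 and Dref at 12.5, 13.6 and 11.5. The list was written with earlier results of these data known, so its share is a description.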

How the data were processed

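ChIP-seq was done on 3 biological replicates. Per the labels, the authors called regions for each replicate against a control input, which is not analysed here, and for the pooled replicates, and derived the IDR set from these lists. Neither the aligner and caller nor the threshold of the IDR step is named in the sources used here. A signal value per region was deposited by the authors; its scale differs between lists, with a median of 98.3 in the pooled list and of 33.9, 38.7 and 43.7 in replicates 1, 2 and 3. The deposited −log10 q-value and the deposited summit offset were read as given. The 6565 IDR regions were the 6565 strongest pooled regions, so IDR membership here is a threshold on pooled signal. The replicate lists and the pooled list come from the same reads and are not independent.

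Coordinates are dm6, 1-based; genes come from Ensembl release 115 and sequence from RefSeq's copy of the same assembly. Intervals listed with several summits were counted once, with the strongest. A replicate's value for a region is its strongest region that spans the pooled summit, divided by the list median. R8 and R9, the weakest pooled regions, have no value of their own in every replicate and are given by position only in the map. Calculations used Python 3.11.15, pandas 2.3.3, numpy 2.4.6, scipy 1.17.1 and matplotlib 3.10.9, and the counting steps were tested on simulated data. Named genes were mod(mdg4), its precursors and neighbours, the comparison loci, the 6 strongest of the insulator list, su(Hw) and l(3)mbt, which were added after their values were seen, CG3281 and the 5 genes most alike in density. Members and lists were chosen with earlier results of these data known. The dm3 lists were not used.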

Additional observations from a re-analysis of the deposited data

How the results depend on the processing

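There were 65 alternatives over 12 results, of which 40 stayed within 1.5 times the count or within the replicate spread or interval and 25 did not. This tally is no measure of robustness. Leaving out 1 of 3 replicates cannot shift their mean by as much as their SD, so those settings of the multiples were bound to stay within it. The alternative scales of the multiples change the unit, so their values are not comparable with the main ones. Without flanks the locus held 3 IDR regions and 5 pooled regions, since R2 and R4 lie outside the genes. Leaving out a replicate did not repeat the pooling or the IDR step. It kept the IDR regions that were also among the strongest regions of both remaining replicates. Of the 6488 distinct IDR intervals, 4648, 4738 and 4601 were kept without replicates 1, 2 and 3. All 5 of the locus were kept each time. They were among the strongest regions of every replicate, so this setting could not lower their count and is no separate check of it. With summits required inside a unit, 1 unit had an IDR summit and 1 a pooled one, and with each isoform as a unit of its own the count was 1. On other scales R1 stood at 4.66 times the median of the strongest regions of a replicate and at percentile 99.1 of its list, and it stood at 12.9 to 15.9 times the list median without single replicates. The density percentile was 75.7 among all protein-coding genes, 82.7 among long genes with an IDR region, 95.2 with the stronger part of the IDR set, and 94.6 to 94.8 with regions found in both replicates that remained when 1 was left out. This last setting kept all 5 regions of the locus and removed regions elsewhere, so it could not lower the percentile. Words of the list were in 1 IDR region near the summit and in 2 regions over the whole interval; the 9-letter string, added after seeing the data, was in 2. With 1 group, no replicate block between groups could be fitted; ratios between regions were taken within replicates. Placing the dm3 lists was not run, as no dm3 annotation was used here. Read depth is unknown, so no statement on undetected binding can be made where no region is listed.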

Other observations

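Outside the mod(mdg4) locus, 88 copies of CAGCCCTGG lay in IDR regions. Of these, 78 (88.6%) lay within 500 bp of a protein-coding start, and 60 of the 78 (76.9%) lay on the strand that the nearest start transcribes. The median position of their centre was −18.5 bp from the start, with quartiles of −53 and −2 bp, and 40 of the 78 lay in the 50 bp upstream of it. Nearness to a start, strand and position were not computed for copies outside IDR regions. These shares therefore do not show whether the placement is particular to copies in IDR regions. Of the other IDR regions 86 held the string and 3 of them held it more than once. The median pooled signal was 461 in the regions with the string and 337 in those without, but 333 in the 3 regions with more than 1 copy. Extended by the letters TG that all 3 copies of the locus share, the string TGCAGCCCTGG had 109 copies elsewhere, of which 33 (30.3%) lay in IDR regions. That extension was read from the locus itself, so its presence there supports nothing.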
